A study of Mus musculus with 16 samples.

Results

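The nuclear-encoded subunits of respiratory chain complexes I to IV were followed in mouse hepatocytes given 1 of 2 inhibitors of the sterol pathway. Members were chosen by symbol: Nduf followed by a, b, c, s or v and a number for complex I, Sdha to Sdhd for complex II, symbols starting with Uqcr for complex III, and symbols starting with Cox4 to Cox8 for complex IV. Of 72 such entries in the RefSeq mouse annotation, 66 had a named probe among the 20659 genes named on the array, and 63 of these were among the 15053 genes tested. They comprised 36 genes of complex I, 4 of complex II, 8 of complex III and 15 of complex IV. Cox7b2, Cox8b and Cox8c, isoforms of complex IV subunits, had probes that were not well above background in any channel, and nothing is said here of their levels. No probe was named for Ndufb1 or for the pseudogenes Cox6c2, Uqcrh-ps1, Uqcrh-ps2, Cox5b-ps and Cox7c-ps1. The subunits that the mitochondrial genome encodes were not analysed here.

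The cells were primary hepatocytes of male C57Bl/J mice, kept in Williams Medium E. From 48 h after plating they received 100 µM SQ1, 30 µM pravastatin or nothing for 48 h. The SQ1 dose is given as labelled, and its unit is in doubt. Each of 16 two-colour arrays carried treated RNA in 1 dye and untreated control RNA in the other, with 8 arrays for SQ1 and 8 for pravastatin. Treated RNA was in Alexa 647 on replicates 1 to 4 and in Alexa 555 on replicates 5 to 8. SQ1 is squalestatin 1, which inhibits squalene synthase, and pravastatin inhibits HMG-CoA reductase, an earlier step of the same pathway. The same control number stands with the same replicate number for both drugs, so that the comparisons share controls. The series describes the cultures as biological replicates.

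The respiratory chain sits in the inner mitochondrial membrane and passes electrons from NADH (complex I) and succinate (complex II) through ubiquinone to complex III, then through cytochrome c to complex IV, which reduces oxygen. Complexes I, III and IV move protons across the membrane, and ATP synthase uses the gradient. Most subunits are encoded in the nucleus, and hepatocytes rely on the chain for the ATP that gluconeogenesis and urea synthesis consume.

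Calls rest on an adjusted p of 0.05 (limma, Benjamini-Hochberg over all genes tested, two-sided), and ratios are treated over control on the log2 scale with standard errors (SE) of the fit. All 63 tested genes were well above background on every array in both channels. With pravastatin, 59 of the 63 fell, 1 rose (Ndufc2) and 3 did not pass the threshold (Cox4i2, Cox6b2 and Cox7a2l), where 35.8% of all genes tested were called lower and 30.9% higher. The median ratio of the 63 was -0.32, a 1.25-fold decrease, beside -0.012 over all genes tested, and 52 of the 63 were below 0 on every array. With SQ1, 12 fell, 3 rose and 48 did not pass the threshold, where 16.5% of all genes were called lower and 15.7% higher. The median SQ1 ratio of the 63 was -0.043, beside -0.0023 over all genes tested. When arrays were centred on their medians in place of loess, the median of the 63 turned to 0.084 and that of all genes to 0.067. All genes thus moved in the same direction but by less, and the median of the 63 went from below that of all genes to above it.

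**Figure D1:**
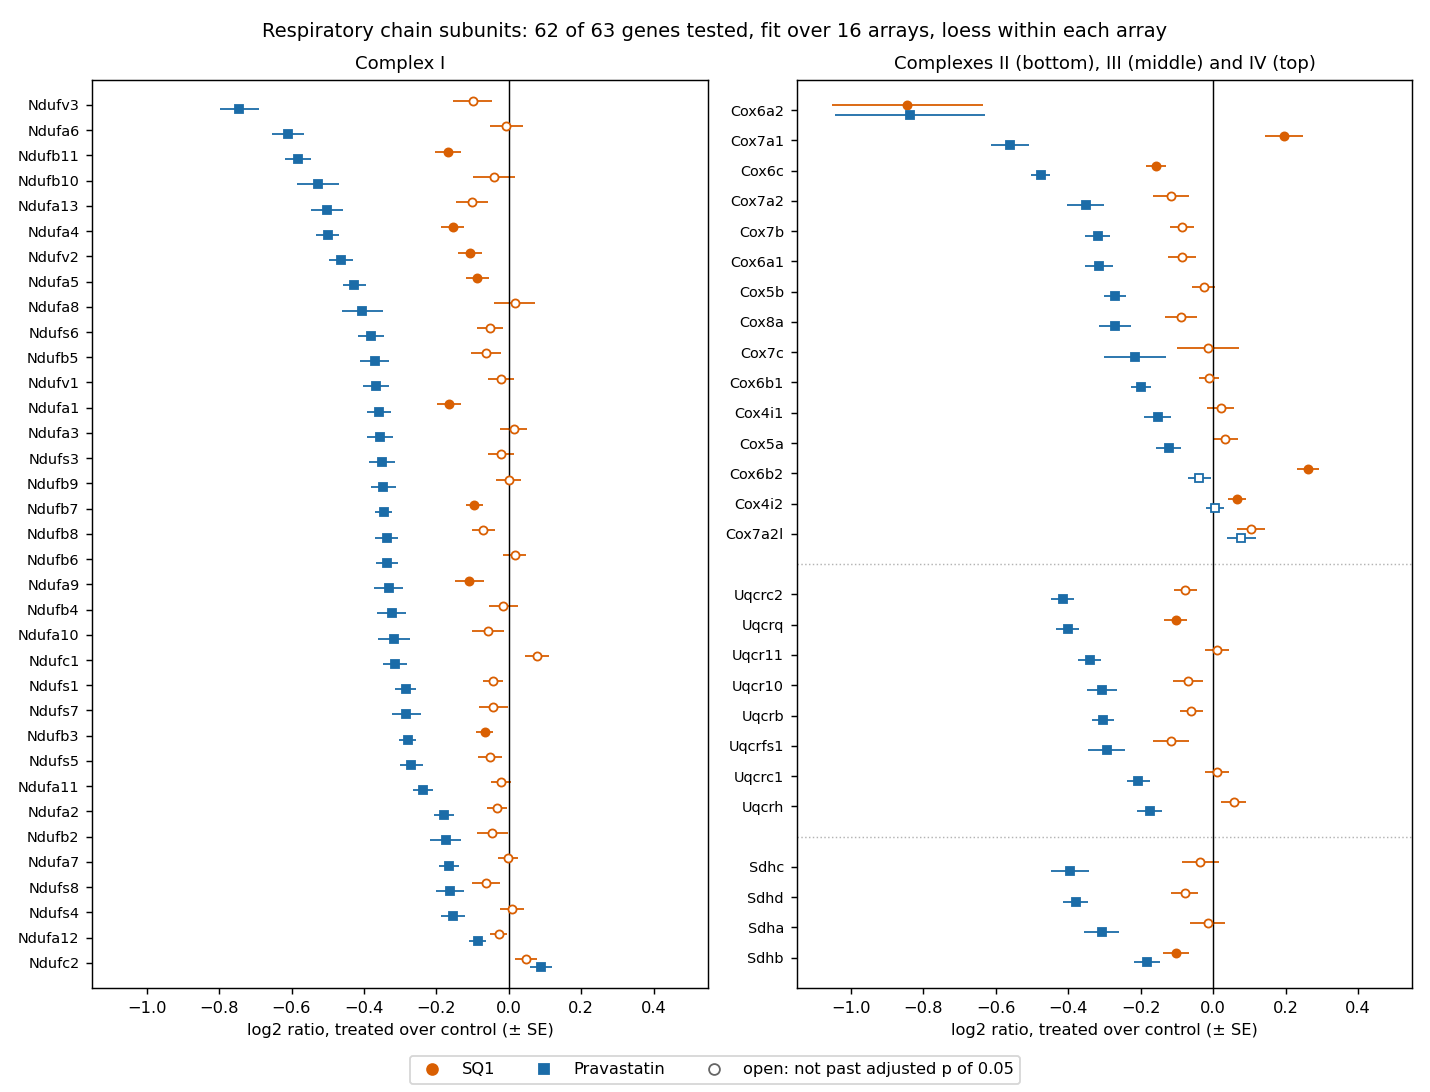
Log2 ratio of treated over control RNA (horizontal axis, ± SE of the fit over 16 arrays) for 62 of the 63 subunits tested, complex I at left and complexes II to IV at right, with SQ1 as circles and pravastatin as squares; filled symbols passed an adjusted p of 0.05. Pravastatin values lie left of 0 for all plotted genes except Ndufc2, Cox4i2 and Cox7a2l, with a median of -0.32 over the 63. SQ1 values lie about 0 with a median of -0.043 that turns to 0.084 under median centring, where that of all genes tested turns from -0.0023 to 0.067.

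Which scaling was used decided how many subunits passed. Under median centring the pravastatin median was -0.12, beside 0.042 over all genes tested, with 11 of the 63 genes called lower and 2 higher. That share of lower calls was near the 18.6% of all genes, beside 29.1% higher, so that at this setting it is not a result about the subunits. The 2 higher genes were Ndufc2 (0.30) and Cox7a2l (0.28). With SQ1 1 gene was lower (Cox6a2) and 2 were higher (Cox6b2 and Cox7a1), beside 3.97% and 9.79% of all genes. The median SE of the 63 was 0.092 with pravastatin in place of 0.035. The same setting moved the split of all pravastatin calls from 46.3% higher to 61.0% higher, and that of SQ1 from 48.7% to 71.1%. The median of the subunits stayed below the median of all genes on 8 of 8 pravastatin arrays, by 0.021 to 0.49 with centring and by 0.18 to 0.38 with loess. On the SQ1 arrays it was below on 2 of 8 with centring and on 5 of 8 with loess. The position of the subunits relative to the other genes thus had 1 direction with pravastatin under both scalings, and no shared direction with SQ1.

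**Figure D2:**
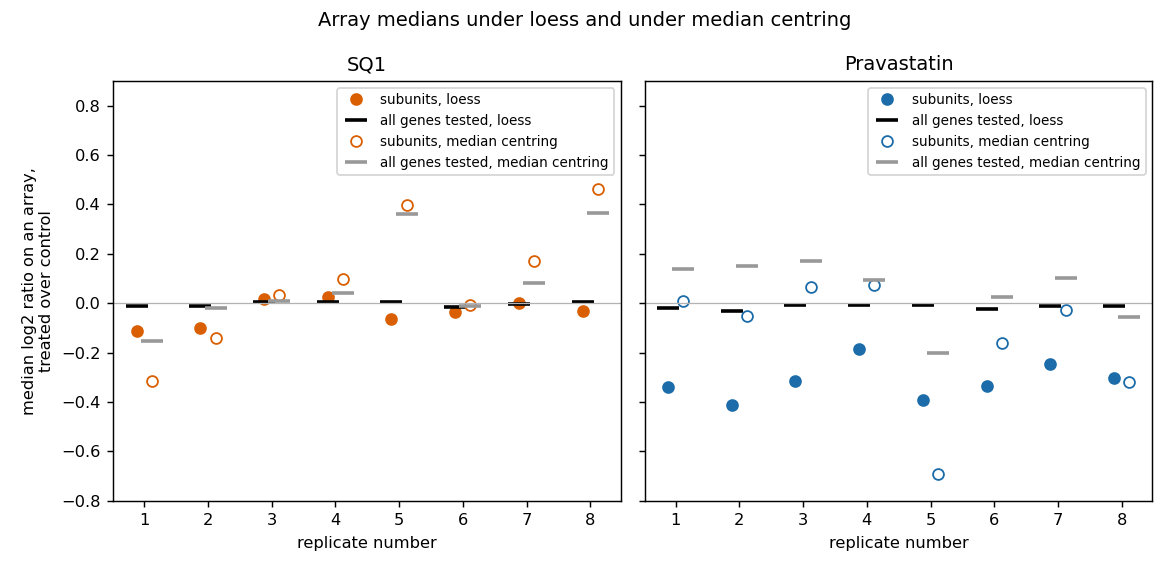
Median log2 ratio of the 63 subunits (circles) and of all genes tested (dashes) on each array, by replicate number, with SQ1 at left and pravastatin at right. Filled circles and black dashes are from loess and open circles and grey dashes from median centring; the subunits lie below all genes on 8 of 8 pravastatin arrays under both, and on 5 of 8 (loess) or 2 of 8 (centring) SQ1 arrays.

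Promoter sequences are shown because the members fell together with pravastatin and NRF1, GABP, YY1 and ERRalpha are the factors best known to bind promoters of respiratory chain genes. RefSeq promoter windows (GRCm38.p6, 250 bases before and 50 after each start) were matched for 53 of the 66 genes, which had 55 windows, and searched on both strands. The NRF1 letters GCGCATGCG, which overlap their own reverse complement, stood in 5 of 55 windows (9.09%) and in 1.75% of the 32851 windows of the table. The GABP letters CCGGAAG stood in 11 of 55 windows (20%) and in 8.86% of all. The YY1 letters AAGATGGCG stood in 5 of 55 (9.09%) and in 1.40% of all, and the ERRalpha letters TCAAGGTCA in 1 of 55 (1.82%, Sdhd) and in 0.423% of all. The last 80 bases before the start are printed for Ndufa8 and Ndufa11 (NRF1 match in capitals) and for Sdhd and Uqcrh (GABP match in capitals), 5′ to 3′ on the strand of the gene.
Ndufa8, chr2:36049339-36049418, minus strand: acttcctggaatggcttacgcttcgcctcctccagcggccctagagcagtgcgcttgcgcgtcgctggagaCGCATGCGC
Ndufa11, chr17:56717682-56717761, plus strand: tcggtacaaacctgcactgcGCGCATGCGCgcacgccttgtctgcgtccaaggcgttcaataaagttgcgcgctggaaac
Sdhd, chr9:50603850-50603929, minus strand: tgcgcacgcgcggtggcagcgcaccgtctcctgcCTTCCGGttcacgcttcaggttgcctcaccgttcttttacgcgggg
Uqcrh, chr4:116075071-116075150, minus strand: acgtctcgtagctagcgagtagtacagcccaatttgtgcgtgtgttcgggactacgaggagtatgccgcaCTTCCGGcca

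The 5 YY1 matches, in Ndufa9, Ndufc1, Ndufs4, Ndufs6 and Ndufs7, lay 22 to 43 bases downstream of the start, all on the strand of the gene. The YY1 letters contain ATG, and whether these matches lie at the start of translation was not tested. The share of windows with these letters is thus not a count of YY1 sites. Of the 5 matches, 3 are printed as 30 bases with the match in capitals.
Ndufc1, chr3:51408915-51408944, minus strand: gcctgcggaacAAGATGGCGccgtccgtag
Ndufs6, chr13:73328433-73328462, minus strand: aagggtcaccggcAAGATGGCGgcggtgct
Ndufs7, chr10:80249462-80249491, plus strand: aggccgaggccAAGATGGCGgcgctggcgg

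With pravastatin the median ratio was -0.31 for the 5 genes with an NRF1 match (range -0.40 to -0.21), -0.31 for the 11 with a GABP match (-0.38 to -0.16) and -0.31 for the 5 with a YY1 match (-0.38 to -0.15). The median of the 44 tested genes with no match or no window was -0.32, over a wider range of -0.84 to 0.090. Genes with a match and the other tested genes, some of which had no window to search, therefore had like medians. A match describes the letters only, and binding was not measured.

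Complex I, the NADH dehydrogenase, was lowered by pravastatin in 35 of its 36 tested genes, with a median of -0.34, and the complex medians of the 8 arrays lay between -0.42 and -0.23. The largest fall was that of Ndufv3, an accessory subunit of the NADH-oxidising arm. Its pravastatin ratios had a lowest, median and highest value of -0.97, -0.73 and -0.51 over the 8 arrays. All 8 arrays were low, and the fit gave -0.74 ± 0.054, a 1.67-fold decrease (adjusted p = 4.1e-09). Ndufa6, an accessory subunit that holds the acyl carrier protein on the matrix arm, had array values of -0.84, -0.60 and -0.45, again all below 0, and fell by 0.61 ± 0.045 on the log2 scale, or 1.53-fold (adjusted p = 4.8e-09). Ndufb11 and Ndufb10, accessory subunits of the membrane arm, fell to ratios of -0.58 ± 0.036 (arrays -0.72, -0.59 and -0.41) and -0.53 ± 0.058 (arrays -0.68, -0.54 and -0.24). These 4 genes also passed the threshold under median centring, at -0.55, -0.42, -0.38 and -0.37 in the same order. Ndufb11 has another tested probe, with a smaller ratio of -0.18, and the other probe of Ndufv3 gave -0.61.

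Core subunits carry the flavin and the iron-sulfur clusters or shape the ubiquinone site and are kept from bacteria to mammals, and the 6 described here all fell with pravastatin. Ndufv2, which holds an iron-sulfur cluster near the flavin, fell most, with array values of -0.53, -0.48 and -0.33, no array above 0, and a ratio of -0.46 ± 0.033, or 1.38-fold (adjusted p = 3.5e-09). Ndufv1, the subunit that binds NADH and flavin, had a ratio of -0.37 ± 0.036, and its values ran from -0.51 to -0.25. Ndufs3 (-0.35 ± 0.035), Ndufs1 (-0.28 ± 0.028) and Ndufs7 (-0.28 ± 0.040) followed, with every array below 0. Ndufs8 fell least of the 6, by 0.16 ± 0.038 on the log2 scale, with 1 of 8 arrays above 0. It did not pass with the Agilent log ratio (adjusted p = 0.093). Of the 6, Ndufv2 alone passed under median centring, at -0.27, while the other 5 kept the sign.

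The exception in complex I was Ndufc2, a membrane-arm subunit whose array values with pravastatin were 0.0075, 0.072 and 0.29. All 8 arrays were above 0 and the ratio was 0.090 ± 0.030, a 1.06-fold increase (adjusted p = 0.015). The call was lost without pravastatin replicate 4 and with the slide, or the scan day, as a random block, and with those blocks no subunit was called higher by limma, beside 24.8% and 24.9% of all genes. Under median centring its ratio was larger, at 0.30. Its partner in the same subcomplex, Ndufc1, went the other way with pravastatin at -0.31 ± 0.034.

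With SQ1, 8 of the 36 complex I genes fell and 0 rose, and the median of the complex was -0.043. The shares were 22.2% lower and 0% higher, beside 16.5% and 15.7% of all genes. Ndufb11 had array values of -0.30, -0.17 and -0.035, with 8 of 8 below 0, and a ratio of -0.17 ± 0.036, or 1.12-fold (adjusted p = 0.0021). Ndufa1, a small subunit needed to anchor the complex in the membrane, had a ratio of -0.16 ± 0.032 (arrays -0.29, -0.17 and -0.0073). Ndufa4, which keeps a complex I name but is assigned to complex IV, had a ratio of -0.16 ± 0.032 (arrays -0.27, -0.16 and -0.00092). Under median centring these 3 were at -0.035, -0.024 and -0.017 and did not pass. Ndufa9, a subunit beside the ubiquinone site, was at -0.11 ± 0.040 (adjusted p = 0.0495, arrays -0.22, -0.17 and 0.041) and turned to 0.013 under centring. Ndufv2 was the single one of these core subunits called with SQ1, at -0.11 ± 0.033 with all 8 arrays below 0 (adjusted p = 0.020), and turned to 0.022 under centring. The other 5 had ratios of -0.063 to -0.022 and did not pass.

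Complex II, succinate dehydrogenase, also belongs to the tricarboxylic acid cycle, and all of its 4 subunits fell with pravastatin. Sdhc, a membrane anchor, had array values of -0.55, -0.45 and -0.014 and a ratio of -0.40 ± 0.051, or 1.32-fold. Sdhd, the other anchor, had values of -0.52, -0.40 and -0.20 and a ratio of -0.38 ± 0.034, or 1.30-fold. Both anchors were below 0 on all arrays. Sdha, the flavoprotein that oxidises succinate, fell 1.24-fold (-0.31 ± 0.048, arrays -0.52, -0.30 and -0.079), and Sdhb, the iron-sulfur subunit, 1.13-fold (-0.18 ± 0.036, arrays -0.34, -0.17 and -0.060). None of the 4 passed under median centring, where Sdhb stood at 0.0035 and the others at -0.20 to -0.13. With SQ1, Sdhb was called lower at -0.10 ± 0.036 (adjusted p = 0.040, arrays -0.23, -0.11 and 0.053), and turned to 0.024 under centring. Sdha, Sdhc and Sdhd had SQ1 ratios of -0.015, -0.036 and -0.079, not past the threshold, and the Sdhd value rests on 7 arrays.

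Complex III, the cytochrome bc1 complex, had all of its 8 tested genes lower with pravastatin, with a median of -0.31. Uqcrc2, a large core protein on the matrix side, had array values of -0.50, -0.46 and -0.23, all below 0, and fell 1.33-fold (-0.42 ± 0.032, adjusted p = 6.7e-09). Uqcrq, a small membrane subunit, fell 1.32-fold (-0.40 ± 0.031, arrays -0.51, -0.43 and -0.19). The small subunits Uqcr11 (-0.34 ± 0.032, arrays -0.48, -0.31 and -0.22) and Uqcr10 (-0.31 ± 0.041, arrays -0.45, -0.34 and -0.043) were next. Under median centring these 4 kept their sign at -0.22 to -0.11 and did not pass. Uqcrfs1, the Rieske iron-sulfur protein and catalytic subunit, fell with pravastatin at -0.29 ± 0.050, with 7 of 8 arrays below 0. With SQ1 its ratio was -0.12 ± 0.050 with 8 of 8 arrays below 0, but it did not pass (adjusted p = 0.083). Uqcrq was the single complex III gene called with SQ1, at -0.10 ± 0.031 (adjusted p = 0.017, arrays -0.19, -0.098 and -0.050), and turned to 0.034 under centring. Its other probe gave -0.15 with SQ1 and -0.40 with pravastatin.

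Complex IV, cytochrome c oxidase, had 12 of 15 tested genes lower with pravastatin and a median of -0.27. It was the complex in which SQ1 made calls in both directions, 3 higher and 2 lower. These are 20% and 13.3%, near the 15.7% and 16.5% of all genes, so that the SQ1 counts are not a result about this complex. Cox6c, which lies in the membrane and has no tissue isoform tested here, fell with both drugs. Its pravastatin arrays had values of -0.55, -0.47 and -0.41, a tight range, and the ratio was -0.48 ± 0.027, or 1.39-fold (adjusted p = 2.0e-10). Its SQ1 arrays had values of -0.28, -0.16 and -0.066 and the ratio was -0.16 ± 0.027, or 1.12-fold (adjusted p = 3.0e-04). Under centring the pravastatin ratio was -0.27 and still passed, and that of SQ1 was -0.027 and did not.

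Several complex IV subunits exist as a widely expressed form and a form restricted to certain tissues. The widely expressed forms Cox4i1, Cox6a1, Cox6b1, Cox7a2, Cox7b and Cox8a all fell with pravastatin, with a median of -0.29 and a range of -0.35 (Cox7a2) to -0.15 (Cox4i1). Cox4i1, the largest nuclear-encoded subunit, turned to 0.051 under centring, and the other 5 kept the sign without passing. None of the 6 passed with SQ1 in limma, where their ratios ran from -0.12 to 0.020. At an unadjusted p of 0.05, 3 of the 6 were lower with SQ1. The share of all genes at that p was not counted, so that this is not a result about these 6 genes.

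The restricted forms differed from one another. Cox7a1, the form of heart and skeletal muscle, was the single member called in opposite directions. With SQ1 its array values were -0.059, 0.19 and 0.38, with 7 of 8 above 0, and it rose 1.14-fold (0.20 ± 0.053, adjusted p = 0.0092). With pravastatin its values were -0.78, -0.59 and -0.23, all below 0, and it fell 1.48-fold (-0.56 ± 0.053, adjusted p = 8.1e-08). The arrays of the 2 drugs did not overlap, and both calls held under centring, at 0.28 and -0.51. With the slide or the scan day as a random block the SQ1 call was lost, at adjusted p = 0.12 and 0.15. Its widely expressed partner Cox7a2 had ratios of -0.12 ± 0.050 with SQ1, not past the threshold, and -0.35 ± 0.050 with pravastatin.

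Cox6b2, the testis form of the subunit that faces the intermembrane space, rose with SQ1. Its arrays had values of 0.084, 0.27 and 0.42, all above 0, and the ratio was 0.26 ± 0.031, with an adjusted p of 1.0e-05, and stood at 0.28 under centring. With pravastatin it was at -0.038 ± 0.031, not past the threshold. Cox4i2, the lung form, was called higher with SQ1 at 0.067 ± 0.025 (adjusted p = 0.0496, arrays -0.060, 0.069 and 0.14), but the paired fit, with the replicate number as a random block, gave adjusted p = 0.060. It lost the call without 7 of the 8 SQ1 arrays in turn, so that it lies at the threshold.

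Cox6a2, the heart and muscle form of subunit VIa, had the largest ratios of the 63 genes with both drugs and the widest spread. With SQ1 its array values were -1.60, -0.91 and -0.050, and the ratio was -0.84 ± 0.21, or 1.80-fold (adjusted p = 0.0050). With pravastatin they were -1.59, -0.96 and 0.12, and the ratio was -0.84 ± 0.21, or 1.79-fold (adjusted p = 0.0019). Each drug had its own slides. The values fell into 2 sets by slide within each drug, and the same replicate numbers made up each set with both drugs. Replicates 1, 2, 5 and 6 had values of -1.60 to -1.10 with SQ1 and -1.59 to -1.30 with pravastatin, and replicates 3, 4, 7 and 8 had -0.71 to -0.050 and -0.62 to 0.12. The slides differed by 1.03 for SQ1 (adjusted p = 0.0019) and by 1.15 for pravastatin (adjusted p = 3.0e-04). Slides, sets of cultures and shared control RNA cannot be told apart here. Of 6 muscle markers on the array, 3 were well above background in all 16 control channels and Ckm, muscle creatine kinase, in none. With pravastatin 2 of the 5 tested fell (40%) and 1 rose (20%), beside 35.8% and 30.9% of all genes. Their pravastatin ratios ran from -1.49 to 0.77 with a median of -0.062. With SQ1 2 fell (40%) and 0 rose, beside 16.5% and 15.7%, with a median of -0.11. The summed signal of the 5, in which bright genes weigh most, was taken with the dye effect left in. It was 62.9% to 108% of control with SQ1 and 47.1% to 71.3% with pravastatin. The part of these markers in the Cox6a2 and Cox7a1 ratios was not tested.

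**Figure D3:**
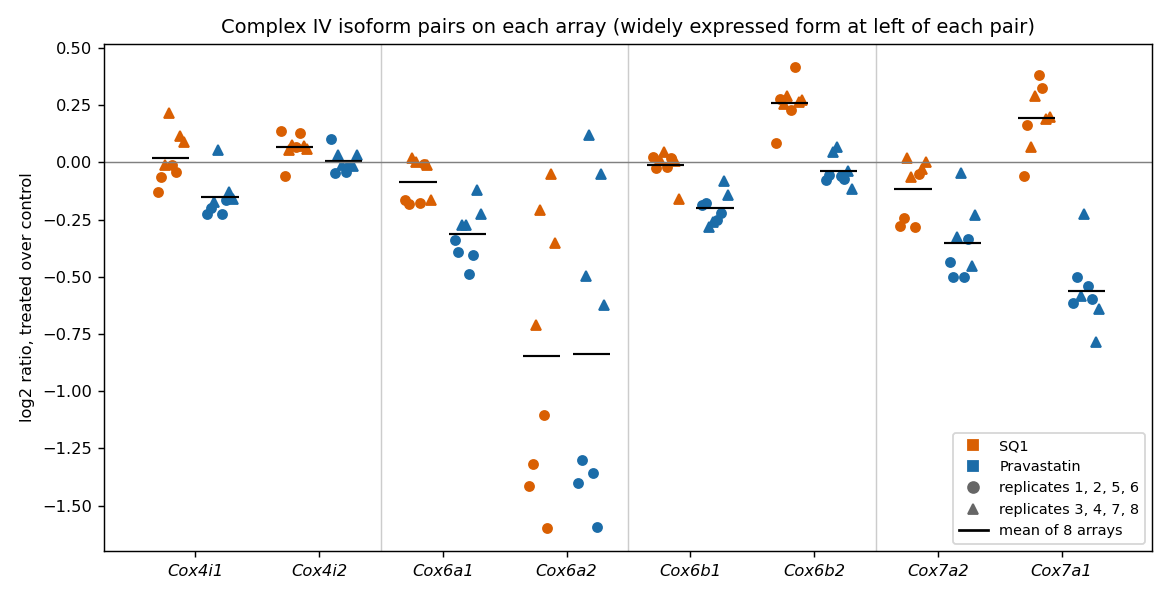
Log2 ratio of treated over control RNA on each of 8 arrays per drug (vertical axis) for 4 pairs of complex IV isoforms, widely expressed form first; circles are replicates 1, 2, 5 and 6, triangles replicates 3, 4, 7 and 8, and bars the mean of 8 arrays. Cox7a1 is higher with SQ1 (0.20) and lower with pravastatin (-0.56), Cox6b2 is higher with SQ1 (0.26), and Cox6a2 splits by replicate numbers with both drugs.

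Among the remaining complex IV genes, Cox5a and Cox5b, subunits on the matrix side, fell with pravastatin at -0.12 ± 0.034 and -0.27 ± 0.032, where Cox5a turned to 0.095 under centring and Cox5b stayed below 0 at -0.070, and neither passed with SQ1. Cox7a2l, which joins complexes III and IV in supercomplexes, had ratios of 0.10 ± 0.040 with SQ1 and 0.078 ± 0.040 with pravastatin and passed in neither, though in the paired fit its SQ1 ratio passed, at adjusted p = 0.040. Its other 2 probes gave 0.10 and 0.11 with pravastatin, at adjusted p = 0.012 and 0.011 in a fit over all probes. Cox7c was called lower with pravastatin at -0.22 ± 0.085, but its arrays ran from -0.82 to 0.34 and its other probes gave -0.082 and 0.053. In the paired fit its call was lost, at adjusted p = 0.055. Of 15 members with several tested probes, the probes had the same sign for 14 with pravastatin and for 11 with SQ1.

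The array medians put a size on the spread within the complexes. With pravastatin the median of all 63 genes was between -0.41 and -0.19 on each of the 8 arrays, and the complex IV medians came closest to 0, at -0.38 to -0.045. With SQ1 the medians of the 63 ran from -0.11 to 0.024. Within slides, the pravastatin median was -0.36 on replicates 1, 2, 5 and 6, with 58 called lower where 35.2% of all genes were. On replicates 3, 4, 7 and 8 it was -0.26, with 52 lower and 2 higher beside 30.5% and 27.0% of all genes. The SQ1 median was -0.089 on replicates 1, 2, 5 and 6, with 24 lower and 1 higher beside 19.5% and 15.3% of all genes. On the other slide it was -0.0045, with 3 lower and 2 higher beside 13.0% and 14.0%. The slides themselves differed for 8 of the 63 genes with SQ1, where 12.3% of all genes differed, and for 10 with pravastatin, where 21.8% did. All 8 of the SQ1 differences were higher on replicates 3, 4, 7 and 8, a direction that most calls of all genes shared (1250 higher and 597 lower). With the slide as a random block SQ1 had 5 genes lower and 1 higher, beside 8.78% and 8.11% of all genes, and Ndufa9, Ndufv2, Sdhb and Uqcrq lost their calls. With the scan day as the block it had 4 and 1, beside 8.30% and 6.58%, and Ndufa4 was lost as well. The count of 12 lower with SQ1 became 7 without replicate 1, 2 or 5 of that drug, and the 3 higher became 5 without replicate 2. Over all 15053 genes, 2201, 2210 and 2186 were lower without replicate 1, 2 or 5, and 2103 higher without replicate 2. The Ndufa9 call was lost without SQ1 replicate 1, 2, 5, 6 or 8, that of Sdhb without 1, 2, 5 or 6, that of Ndufv2 without 2, 5 or 8, and that of Uqcrq without 1.

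**Figure D4:**
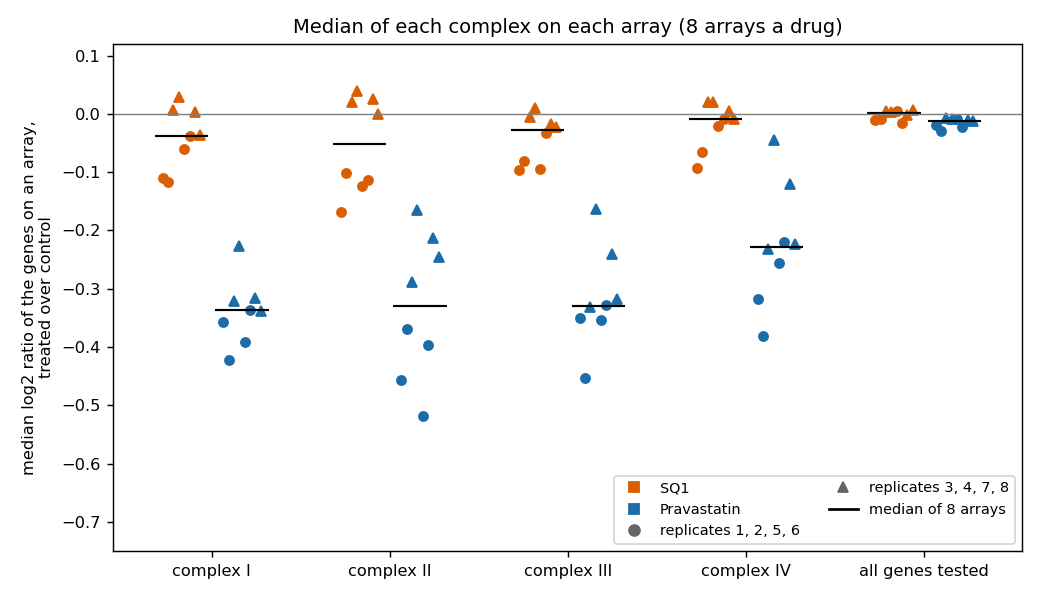
Median log2 ratio, treated over control, of the genes of each complex and of all genes tested on each array (vertical axis); circles are replicates 1, 2, 5 and 6, triangles replicates 3, 4, 7 and 8, and bars the median of 8 arrays. All complex medians are below 0 on every pravastatin array, and SQ1 medians are about 0. With SQ1 the median over the 63 genes turns from -0.043 to 0.084 under median centring, and that of all genes tested from -0.0023 to 0.067.

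The difference between the drugs was tested as a contrast within the fit, at doses of 100 µM and 30 µM as labelled. No slide carried arrays of both drugs, and pravastatin replicates 1, 2, 5 and 6 were scanned on another day than all other arrays. A difference between drugs thus cannot be told apart from a difference between slides, nor fully from a difference between scan days. SQ1 ratios were above pravastatin ratios for 54 of the 63 genes, where 29.3% of all genes were called in that direction and 23.8% in the other. No member was called in the other direction by limma, and 0 had an unadjusted p below 0.05 there. The median difference was 0.24. Cox7a1 differed most, by 0.76 ± 0.074 or 1.69-fold (adjusted p = 4.2e-07), then Ndufv3 by 0.64 ± 0.076 or 1.56-fold and Ndufa6 by 0.60 ± 0.064 or 1.52-fold. Ndufb10 differed by 0.48 ± 0.082, Ndufa8, an accessory subunit on the intermembrane side, by 0.42 ± 0.079, and Ndufb11 by 0.41 ± 0.051. The other tested probe of Ndufb11 gave -0.21 with SQ1 and -0.18 with pravastatin and did not show this difference. That of Ndufv3 gave 0.15 and -0.61. Ndufa8, whose promoter is printed above, had ratios of 0.016 ± 0.056 with SQ1 and -0.40 ± 0.056 with pravastatin. Under median centring the median difference was 0.20 and 5 genes passed, where 14.5% of all genes did in that direction, namely Cox7a1, Ndufv3, Ndufa6, Ndufb10 and Cox6b2. Genes that did not pass included Cox6a2, with a difference of -0.0068 ± 0.29, a width that leaves its order between the drugs undetermined.

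Proteins of the chain that the symbol rule leaves out were looked at beside it. Cyc1, the cytochrome c1 of complex III, and Cycs, cytochrome c, fell with pravastatin at -0.21 ± 0.032 and -0.18 ± 0.039 and did not pass with SQ1. Ndufa4l2, a hypoxia-responsive relative of Ndufa4, fell with both, at -0.87 ± 0.18 with SQ1 and -1.06 ± 0.18 with pravastatin. Ndufab1, the acyl carrier protein, passed with neither. Of 17 tested ATP synthase genes, 16 fell with pravastatin and 1 rose, with a median of -0.27, and 3 fell and 1 rose with SQ1, with a median of -0.040. Atp5g1, a gene for the membrane ring subunit, had the largest pravastatin fall (-0.62 ± 0.047), and Atpif1, the inhibitor of the enzyme's reverse reaction, rose with SQ1 (0.20 ± 0.035) and with pravastatin (0.083 ± 0.035). Atp5l, a small membrane subunit, had the lowest SQ1 ratio (-0.14 ± 0.035). The 17.6% of ATP synthase genes lower with SQ1 lie near the 16.5% of all genes, and the 5.88% higher lie below the 15.7% of all genes; with pravastatin 94.1% were lower beside 35.8% of all genes.

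Of 44 assembly factors, which insert cofactors and build the complexes, 30 fell and 1 rose with pravastatin, with a median of -0.16. The largest fall was that of Cox19, a factor for copper delivery (-0.69 ± 0.062), and the rise was that of Cox17, a copper chaperone (0.13 ± 0.051). With SQ1, 8 of the 44 fell and 5 rose, led by Cox19 (-0.22 ± 0.062) and Foxred1, a complex I assembly factor (0.14 ± 0.042). The shares were 68.2% lower with pravastatin, beside 35.8% of all genes, and 18.2% lower and 11.4% higher with SQ1, beside 16.5% and 15.7% of all genes, so that the SQ1 counts are not a result about assembly factors. The mitochondrial ribosome translates the mitochondrially encoded subunits. Its genes were taken by symbol (Mrpl or Mrps and a number), without a check that each product, that of Mrps36 included, belongs to the ribosome. Of 74 such genes tested, 39 fell and 10 rose with pravastatin, with a median of -0.089, led by Mrpl50 (-0.61 ± 0.039) and Mrpl19 (0.45 ± 0.047). With SQ1, 12 of the 74 fell and 3 rose, led by Mrpl49 (-0.26 ± 0.033) and Mrps36 (0.15 ± 0.033). The share lower was 52.7% with pravastatin, beside 35.8% of all genes, and the 16.2% with SQ1 was near the 16.5% of all genes and is not a result about these genes.

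Of 13 tricarboxylic acid cycle genes, 11 fell and 1 rose with pravastatin, with a median of -0.21. Suclg2, a subunit of succinyl-CoA ligase, had the lowest ratio (-0.95 ± 0.084), and Idh3a, a subunit of isocitrate dehydrogenase, rose (0.29 ± 0.032). With SQ1, Idh3a (0.20 ± 0.032) and Mdh2, malate dehydrogenase (0.19 ± 0.037), were the 2 genes called, both higher. The 15.4% higher with SQ1 was near the 15.7% of all genes, and the 84.6% lower with pravastatin stood beside 35.8%. Of 13 genes for synthesis of coenzyme Q, whose side chain is made from mevalonate, 6 fell and 2 rose with pravastatin. Coq8a, an atypical kinase of the pathway, fell by 1.89 ± 0.16 on the log2 scale, and Coq10b, a coenzyme Q binding protein, rose by 0.32 ± 0.031. With SQ1, Coq2, which attaches the side chain, was lower (-0.095 ± 0.029), and 2 genes were higher, with Coq7, a hydroxylase, at 0.11 ± 0.035. With pravastatin 46.2% were lower and 15.4% higher, beside 35.8% and 30.9% of all genes, and with SQ1 7.69% and 15.4%, beside 16.5% and 15.7%.

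Of 15 regulators of mitochondrial biogenesis, 7 fell and 3 rose with pravastatin, and 5 fell and 2 rose with SQ1. Ppara, a nuclear receptor of fatty acid oxidation, had the lowest pravastatin ratio of those called (-0.86 ± 0.22), and Esrra, which encodes ERRalpha, the highest (0.34 ± 0.040). With SQ1 Gabpa, which encodes the DNA-binding subunit of GABP, had the lowest ratio of those called (-0.26 ± 0.054), and Esrrg, a relative of ERRalpha, the highest (0.25 ± 0.050). The shares were 46.7% lower and 20% higher with pravastatin, beside 35.8% and 30.9% of all genes, and 33.3% and 13.3% with SQ1, beside 16.5% and 15.7%. These transcript levels say nothing of the factors' activity.

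Markers of the cell types were read in the same fit. The 10 hepatocyte markers, albumin and others, were well above background in all 16 control channels. With pravastatin all 10 fell, with ratios of -4.58 to -0.32 and a median of -1.56, Cyp3a11, a drug-metabolising cytochrome P450, at the low end. Their summed signal was 22.4% to 60.7% of that in the control channel. The dye effect was left in for this and the other summed signals, so that their ranges include differences of dye orientation. The fall of the subunits thus stood beside a larger fall of hepatocyte genes, and in these bulk cultures fewer cells of a type and less RNA per cell cannot be told apart. Of 10 Kupffer cell markers 9 fell with pravastatin, with a summed signal of 55.1% to 78.6% of control. With SQ1, 4 hepatocyte and 4 Kupffer markers of 10 each fell, with summed signals of 60.3% to 147% and 77.1% to 90.4% of control. The shares lower were 100% and 90% with pravastatin, beside 35.8% of all genes, and 40% and 40% with SQ1, beside 16.5%. The markers of stellate cells and fibroblasts, endothelium and cholangiocytes had 3, 3 and 3 genes lower and 0, 4 and 1 higher with pravastatin, of 8, 8 and 6 tested. With SQ1 they had 1, 0 and 3 lower and 1, 4 and 0 higher. With pravastatin the shares were 37.5%, 37.5% and 50% lower, beside 35.8% of all genes, and 0%, 50% and 16.7% higher, beside 30.9%. With SQ1 they were 12.5%, 0% and 50% lower, beside 16.5%, and 12.5%, 50% and 0% higher, beside 15.7%. The stellate and endothelial shares lower with pravastatin were thus near that of all genes. No marker of these lists was at background in all control channels, and the part of the markers in the subunit ratios was not tested. Correlations of the ratios of all genes between arrays of 1 drug were taken with the dye effect left in. They ran from 0.79 to 0.95 with pravastatin and from 0.073 to 0.78 with SQ1. Arrays of opposite dye orientation are among these pairs, so that the values do not measure spread between replicates alone.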

How the data were processed

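Per the labels, 500 ng of total RNA was amplified and labelled with Alexa 555 or Alexa 647. The deposited scanner files hold spot and background intensity, which the authors left unnormalized, and a log10 ratio made by Agilent Feature Extraction (11.0.1.1, read from the headers). A series table deposited beside them holds log2 values, whose making is not given in the sources used here. It matched the scanner ratio turned to treated over control, with r of 0.742 to 0.999 per array.

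Intensities were read with limma 3.58.1 in R 4.3.3, background was corrected by normexp (offset 50), arrays were normalized by loess, and spots were averaged per probe. Probes were named through their RefSeq accession. A probe was tested if well above background on 4 treated arrays of a drug or in 8 control channels. The probe with the highest mean intensity stood for a gene. A single fit over 16 arrays had a coefficient per drug and a dye constant (13 residual degrees of freedom), was tested on simulated data, and gave p-values by eBayes that measure spread between arrays. Array values have the dye effect removed.

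Same-numbered samples deviated together (r of 0.34 to 0.75 in 8 of 8 pairs), so that the numbers were taken to pair the samples, though for replicate 3 another number gave a higher r (0.38 against 0.34). Named genes were, with each drug, the 4 called members with the largest ratio in complexes I, III and IV, all of complex II, the 6 largest differences, core and catalytic subunits, isoform pairs, opposite calls, and the leading called gene of other lists in each direction; Ndufc1, Ndufc2, Cox5a, Cox5b, Cox7a2l, Cox7c and genes outside the rule's lists were added after their values were seen. Members and lists were chosen with earlier results of these data known. Alternatives are described in the closing section; the comparison of array medians under median centring was chosen after seeing the data. A result for 1 gene is not reported here. The number of arrays limits the precision.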

Additional observations from a re-analysis of the deposited data

Results flagged for a closer look

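Cox6a2 differed between the slides by 1.03 with SQ1 and by 1.15 with pravastatin, on the log2 scale, tested as a contrast within the fit. With SQ1, Sdha (0.20), Sdhb (0.19) and Ndufb11 (0.17) were also higher on the slide of replicates 3, 4, 7 and 8 than on the other. With pravastatin the same direction was seen for Sdha (0.25), Uqcr10 (0.24), Ndufv3 (0.24), Ndufa6 (0.23), Ndufb10 (0.23), Cox6a1 (0.18) and Ndufv1 (0.16). Under median centring no member differed between SQ1 slides and 1 between pravastatin slides. The share of all genes that differed at this setting was not counted. The median SE of the members was wider there, at 0.092 in place of 0.035 for the pravastatin ratios. Fewer slide differences are thus not a result about the subunits.

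A sample far from the others of its group was seen in 3 of 50 sets of 8 array values, where chance alone gives about 5%. Cox4i2 was at -0.060 on SQ1 replicate 2, and the next array was at 0.052. Cox4i1 was at 0.052 on pravastatin replicate 4, with the next at -0.13. Cox7b was at -0.066 on the same array, with the next at -0.27.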

How the results depend on the processing

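Median centring in place of loess had the largest effect: the SQ1 median turned to 0.084 with 1 gene called lower, and Ndufa9 (0.013), Uqcrq (0.034), Sdhb (0.024), Ndufv2 (0.022), Ndufa5 (0.041), Ndufb3 (0.058) and Ndufb7 (0.028) turned sign with SQ1. For pravastatin it gave a median of -0.12, 11 genes lower and 2 higher, with Sdhb (0.0035), Cox4i1 (0.051), Cox5a (0.095), Ndufa12 (0.080), Ndufs4 (0.034), Uqcrh (0.034), Ndufa7 (0.023), Ndufa2 (0.015) and Ndufb2 (5.3e-05) turned. The median of all genes tested moved at this setting as well, to 0.067 with SQ1 and to 0.042 with pravastatin. The drugs then differed for 5 genes, and the slides for 0 and 1, where the share of all genes between slides was not counted. With the slide as a random block SQ1 had 5 genes lower and 1 higher, with the scan day 4 and 1, and pravastatin had 0 higher in both. Without the dye constant, or at an adjusted p of 0.01, SQ1 had 6 lower and pravastatin 0 higher. Of the 15053 genes tested, 2126 and 1579 were lower with SQ1 at these settings, and 4400 and 3916 higher with pravastatin. The SQ1 counts at these settings are thus not a result about the subunits. The mean of all probes of a gene gave 2 higher with pravastatin, beside 4667 of the 15053 genes tested. Leaving out each array gave 7 to 12 lower and 2 to 5 higher for SQ1, with 7 lower without replicate 1, 2 or 5. Over all genes 2201, 2210 and 2186 were then lower, in that order. SQ1 had 5 higher without replicate 2, beside 2103 of all genes. Pravastatin had 0 to 1 higher, beside 4411 to 4626 of all genes. The replicate block, random, gave 10 lower and 3 higher for SQ1, 58 lower and 1 higher for pravastatin and 56 differences, and as fixed pairs 55 differences. Over all 15053 genes the random block gave 2463 lower and 2262 higher for SQ1, and 5322 lower and 4547 higher for pravastatin. Differences with SQ1 above pravastatin numbered 5215 with the random block and 5117 as fixed pairs. With the random block Cox4i2, Ndufa5 and Ndufb3 lost and Cox7a2l gained an SQ1 call, Cox7c lost its pravastatin call, and Ndufb2 and Ndufs8 gained a difference. The Agilent log ratio, the series table and the unfiltered table kept the direction of each median and all counts within 1.5 times, while Ndufa9 lost its SQ1 call in each of them, Ndufs8 its pravastatin call in the first 2, and Cox4i2 its SQ1 call in the last. Signal over background did not limit the 63 genes, all of which were well above it. Wide array-to-array spread limits Cox6a2 and Cox7c.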
